A study of Rattus norvegicus and Bos taurus with 6 samples.

Results

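Brown and white adipose depots of the Dahl salt-sensitive rat were compared by single-nucleus RNA sequencing with the Parse combinatorial barcoding kit, taking depots as the replicates of a colour. The 2 brown depots were the thoracic aortic perivascular adipose tissue (taPVAT) and the subscapular brown adipose tissue (BAT), and the 2 white depots were the mesenteric perivascular tissue (mesPVAT) and the retroperitoneal (RP) fat. These 4 libraries are 4 of the 6 samples of the series, and they were chosen by tissue and kit alone. All came from males of the SS/HsdMcwiCrl strain, a salt-sensitive hypertension model, fed a normal diet with no treatment named, kept at 22 °C and sampled as snap-frozen tissue, and all carry the same batch label. Their age and the number of animals behind each library were not given in the labels, and 1 library stands for each depot.

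Brown adipocytes burn fatty acids in many mitochondria and release the energy as heat through uncoupling protein 1 (Ucp1), which returns protons to the matrix without making ATP. White adipocytes hold their lipid in 1 large droplet, release fatty acids on demand and secrete hormones such as leptin. Perivascular fat surrounds vessels, and its colour follows the site: brown around the thoracic aorta and white around the mesenteric vessels of the rat.

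The libraries differed in depth and content along with colour. The brown libraries held 2708 nuclei with 5100216 transcript molecules (unique molecular identifiers, UMIs) for taPVAT and 2699 nuclei with 6317970 UMIs for BAT. The white libraries held 3028 nuclei with 1656726 UMIs for the library labelled mesPVAT and 2805 nuclei with 845316 UMIs for that labelled RP fat, so that the median nucleus had 1246 and 1706 UMIs in brown against 346 and 213 in white. The library labelled mesPVAT had the higher median number of genes per nucleus of the white pair, 304 against 197. The text of the study gives these depots in the opposite order, so the labels of the white pair may be exchanged, which was not tested. Both libraries are white under either reading, and mesPVAT and RP fat below mean the libraries so labelled. No barcode was shared between libraries. By the study's methods, taPVAT homogenates were spun more slowly than white ones during nuclei isolation, which cannot be told apart from colour, and the speed for BAT was not given in the sources used here. Nuclei with at least 2 UMIs of 10 adipocyte markers made up 75.5% and 86.2% of the brown nuclei but 30.7% and 9.31% of the white nuclei, and the summed level of these markers was 9466 and 10426 CPM in brown and 4214 and 1615 CPM in white. A fixed cutoff of 2 UMIs is met less often at low depth, so these shares are not shares of adipocytes. Marked nuclei had more UMIs than nuclei without a marker UMI, with medians of 583.5 against 272 in mesPVAT and 359 against 193 in RP fat. No share at equal depth was made. In summed nuclei fewer cells of a type and less RNA per cell cannot be told apart. Values below are CPM, the UMIs of a gene scaled by the UMI total of the library, given in the order taPVAT, BAT, mesPVAT, RP fat, and log2 fold changes are brown over white.

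Of 38697 annotated genes, 13367 had at least 100 UMIs in the 4 libraries together and were tested. With 1 library per depot, p-values measure the spread between the depots of a colour, which may in part be technical. Both brown libraries lay above both white ones in CPM for 4581 of them, which is 34.3%, and both white libraries lay above both brown ones for 5917, which is 44.3%. By edgeR's quasi-likelihood test at a false discovery rate (FDR) of 0.05, 3278 genes were higher in brown, 24.5% of those tested, and 4138 were higher in white, 31.0%. The median log2 fold change over all tested genes was 0.07. Every gene called higher in brown was also non-overlapping, and 1 of the 4138 genes called higher in white overlapped.

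The thermogenic genes separated the colours. Of 25 genes on the list, 21 passed the minimum of UMIs, 18 were called higher in brown and 1 in white, with a median log2 fold change of 2.69. Of all tested genes 24.5% were higher in brown and 31.0% in white, shares that apply beside each list below. The minimum counts UMIs over the 4 libraries together, most of them brown. Members such as Cox8b (129, 113, 2 and 2 UMIs) passed it through brown only, so the list counts lean to genes high in brown. The dot plot of the thermogenic genes shows the brown pair to the right of the white pair in all but the lowest rows.

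**Figure D1:**
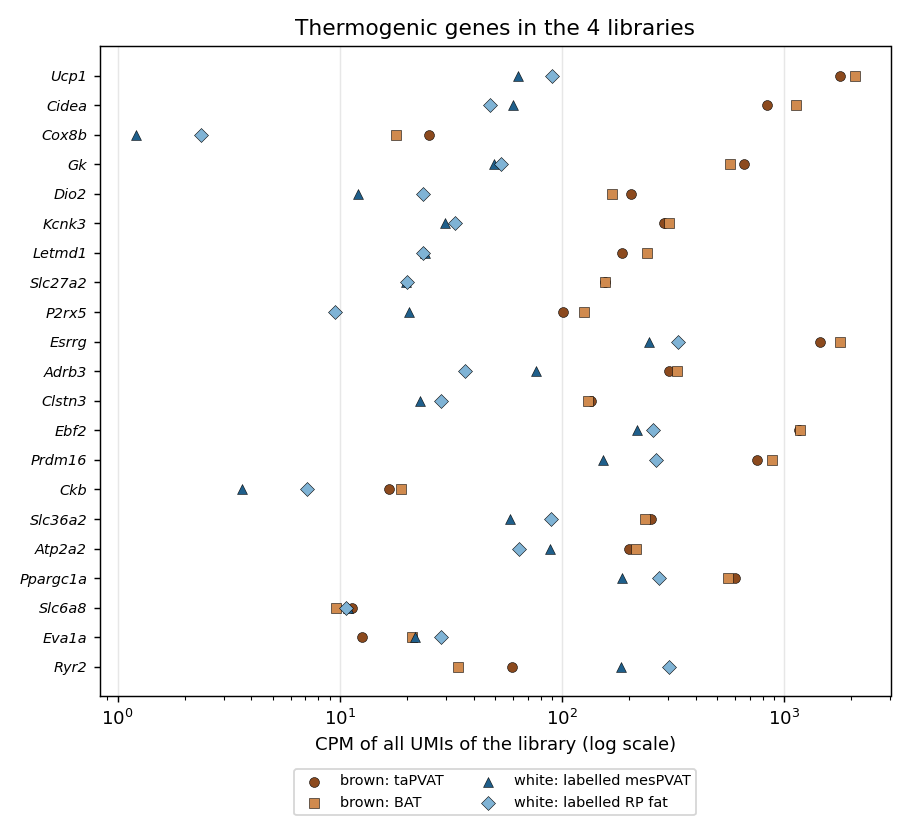
CPM (log axis) of the 21 tested thermogenic genes in the 4 libraries, ordered by log2 fold change, 1 symbol per library. Ucp1 at the top lies at 1782 and 2072 CPM in brown and at 63.4 and 89.9 CPM in white, and Ryr2 at the bottom lies higher in white.

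Ucp1 reached 1782 and 2072 CPM in taPVAT and BAT against 63.4 and 89.9 CPM in mesPVAT and RP fat. The brown values did not overlap the white ones, and the log2 fold change was 4.88 ± 0.50 (SE, n = 2 and 2 libraries, edgeR FDR = 9.1e-05). The barcoding wells, which split a library technically, ranged from 1658 to 2383 CPM over the 6 brown wells and from 37.0 to 111 CPM over the 4 white wells. Cidea, a lipid droplet protein of brown fat, stood at 839, 1127, 60.4 and 47.3 CPM, a log2 fold change of 4.41 ± 0.43. Dio2, the deiodinase that makes active thyroid hormone within the cell, gave 204, 168, 12.1 and 23.7 CPM, with both brown values above both white ones. Gk, glycerol kinase, gave 661, 568, 49.5 and 53.2 CPM.

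The receptor, the regulators and the channel of the same list moved less than Ucp1. Adrb3, the beta-3 adrenergic receptor through which noradrenaline drives thermogenesis, was at 304, 330, 76.1 and 36.7 CPM (log2 fold change 2.69 ± 0.37). Prdm16, a co-regulator of brown adipocyte identity, was at 755, 879, 152 and 265 CPM, and Ppargc1a, the co-activator of mitochondrial biogenesis, at 600, 557, 185 and 274 CPM (log2 fold change 1.55 ± 0.36). Ppargc1a thus had the smallest difference of the 18 genes called, and its call was lost without either brown library (FDR = 0.070 without taPVAT and 0.069 without BAT). Ryr2, the calcium release channel of the sarcoplasmic reticulum, ran the other way at 59.8, 34.0, 183 and 304 CPM, while its UMIs per 1000 nuclei overlapped between the colours, at 113, 79.7, 100.1 and 91.6, with a per-nucleus log2 fold change of 0.0020. Slc6a8, the creatine transporter, and Eva1a were not called, and Cox7a1 and Elovl3, both known from brown fat, had 4 and 7 UMIs in all and were not tested.

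Ucp1 was also counted nucleus by nucleus. A Ucp1 UMI was found in 52.5% of taPVAT and 62.7% of BAT nuclei (95% exact binomial intervals 50.6 to 54.4% and 60.9 to 64.6%), against 3.17% (2.58 to 3.86%) of mesPVAT and 2.46% (1.92 to 3.10%) of RP nuclei. After each nucleus was thinned to 200 UMIs, which left out 476 mesPVAT and 1302 RP nuclei and 0 brown nuclei, the shares were 18.9%, 24.5%, 1.80% and 1.40%. In brown, the thinned share was 23.7% and 27.7% among adipocyte-marked nuclei (65.5% and 70.6% before thinning) against 3.59% and 3.42% in nuclei without an adipocyte marker UMI (8.68% and 15.8%). In mesPVAT it was 1.71% (0.959 to 2.80%) for marked nuclei and 1.23% (0.674 to 2.05%) for nuclei without a marker, from 3.87% and 2.32% at median depths of 583.5 and 272 UMIs. In RP fat it was 1.45% (0.300 to 4.18%) and 1.17% (0.587 to 2.09%), from 4.60% and 1.74% at median depths of 359 and 193 UMIs. The intervals of marked and unmarked nuclei overlapped in both white libraries after thinning, so no difference was detectable at this depth, where the marked RP share rests on 3 of 207 nuclei. Whether the white UMIs are free RNA was not tested, and these intervals cover counting error only.

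The upstream 250 bases of 4 genes are printed here as examples of genes called higher in brown that hold 1 of the 2 short motifs searched. Among the genes named by p-value or gap and the thermogenic list, Calr3, Clstn3, Fabp3, Gk and Tfrc also meet these terms and are not printed. Of the 2445 promoters of all genes called higher in brown, 794 held TGACG and 249 held AGGTCA. The motifs were AGGTCA, the half-site of nuclear receptors such as the PPARs and thyroid hormone receptors, and TGACG, the core of the cAMP response element, each searched on both strands, and a match of one can overlap a match of the other only in part. Sequences are 5′ to 3′ on the gene's strand, from RefSeq on GRCr8, with the matched letters in capitals.
Ucp1 (chr19:41721422-41721671, minus strand): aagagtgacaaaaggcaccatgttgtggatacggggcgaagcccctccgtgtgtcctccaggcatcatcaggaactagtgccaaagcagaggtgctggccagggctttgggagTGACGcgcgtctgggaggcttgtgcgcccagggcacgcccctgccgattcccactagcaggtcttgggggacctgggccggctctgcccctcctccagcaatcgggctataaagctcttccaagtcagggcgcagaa
Ppargc1a (chr14:63634058-63634307, plus strand): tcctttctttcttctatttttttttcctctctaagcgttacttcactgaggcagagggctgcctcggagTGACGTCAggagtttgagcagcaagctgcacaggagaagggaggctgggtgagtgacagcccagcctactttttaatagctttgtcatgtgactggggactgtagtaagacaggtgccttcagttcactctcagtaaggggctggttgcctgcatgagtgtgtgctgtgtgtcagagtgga
Nr4a2 (chr3:62104888-62105137, minus strand): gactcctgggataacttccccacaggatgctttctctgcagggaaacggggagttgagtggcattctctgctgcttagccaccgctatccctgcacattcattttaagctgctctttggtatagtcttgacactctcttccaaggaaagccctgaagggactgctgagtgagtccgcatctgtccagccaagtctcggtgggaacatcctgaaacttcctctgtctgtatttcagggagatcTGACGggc
Slc27a2 (chr3:134257851-134258100, plus strand): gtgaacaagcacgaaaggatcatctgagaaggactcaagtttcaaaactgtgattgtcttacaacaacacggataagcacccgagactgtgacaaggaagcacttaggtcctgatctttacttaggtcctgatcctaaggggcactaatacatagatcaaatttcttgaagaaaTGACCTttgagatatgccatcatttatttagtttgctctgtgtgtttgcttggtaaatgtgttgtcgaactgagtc
Slc27a2, an acyl-CoA synthetase for very long fatty acids, gave 157, 156, 19.9 and 20.1 CPM. In Ucp1 and Nr4a2 the capitals mark 1 TGACG match, in Ppargc1a a pair of overlapping matches on opposite strands, and in Slc27a2 1 AGGTCA match on the minus strand. TGACG was found in 4 of the 19 thermogenic promoters with a sequence (21.1%), beside 19.3% of all 24206 promoters, 28.2% of those of tested genes, 32.5% of those called higher in brown and 19.8% of those called higher in white. The last 2 shares rest on promoters of 2445 of 3274 symbols called in brown and 1603 of 4136 in white. AGGTCA was found in 2 of the 19 (10.5%), beside 13.5% of all promoters and 9.91% of those of tested genes. They were Slc27a2 and Ryr2, the latter called higher in white. A match describes the letters only, and the motif shares of thermogenic genes lay close to the background.

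Genes that bring fatty acids into the mitochondrion and break them down were higher in brown almost throughout. Of 28 tested entries on the fatty acid oxidation list (27 symbols, Eci2 being annotated at 2 loci), 23 were called higher in brown and 1 in white, with a median log2 fold change of 2.64. Cpt1b, the muscle and brown fat form of carnitine palmitoyltransferase that lets long-chain fatty acids in, had the largest gap of all genes with a symbol. Its values were 812 and 1033 CPM in brown and 32.6 and 36.7 CPM in white, so that the lower brown value was 22.1 times the higher white one (log2 fold change 4.97 ± 0.43). Cpt1a, the liver form of the same enzyme, lay the other way at 26.3, 14.4, 42.9 and 50.9 CPM (log2 fold change -0.99 ± 0.34, FDR = 0.031), a direction that turned when values were scaled per nucleus (1.10) or when genes with few UMIs were kept (0.27). Its call was also lost without BAT (FDR = 0.36) and without the library labelled RP fat (FDR = 0.075).

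The carriers and enzymes after that step followed Cpt1b. Slc25a20, which passes acylcarnitines across the inner membrane, gave 170, 161, 15.1 and 15.4 CPM, and Fabp3, a cytosolic fatty acid binding protein, 127, 126, 9.05 and 13.01 CPM. Hadhb, the thiolase subunit of the trifunctional protein, gave 527, 512, 35.0 and 40.2 CPM, a log2 fold change of 4.02 ± 0.36. Ucp3, an uncoupling protein homologue, gave 314, 284, 35.0 and 35.5 CPM. In each of these the 2 libraries of a colour lay close together and far from the other pair.

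The respiratory chain and the tricarboxylic acid cycle gave a nearly uniform list. Of 41 tested nuclear genes, 40 were called higher in brown, none lower, and all 41 were non-overlapping, with a median log2 fold change of 2.56. Idh3a, the catalytic subunit of NAD-dependent isocitrate dehydrogenase, had the smallest p-value of the genes higher in brown, with 140, 151, 10.9 and 10.6 CPM (log2 fold change 3.98 ± 0.32, FDR = 9.1e-05). Citrate synthase (Cs), which starts the cycle, gave 426, 428, 50.7 and 37.9 CPM. Cox15, an assembly factor of cytochrome oxidase, was the 1 gene not called, at 31.0, 26.7, 21.1 and 26.0 CPM.

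All 9 tested transcripts of the mitochondrial genome were higher in brown as well, with a median log2 fold change of 2.68. Mt-co1, a cytochrome oxidase subunit, stood at 644, 687, 39.8 and 102 CPM. Mitochondrial UMIs were 0.363% and 0.340% of the total in brown and 0.0504% and 0.0839% in white, and what part RNA carried over from outside the nuclei has in these 9 values was not tested.

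Lipid synthesis and glucose use were higher in brown without exception among the genes tested. All 19 tested genes of lipogenesis and esterification and all 19 of glucose use were called, with median log2 fold changes of 2.23 and 2.48. Fasn, fatty acid synthase, gave 718, 418, 31.4 and 28.4 CPM (log2 fold change 4.45 ± 0.41), and Acacb, the mitochondrial acetyl-CoA carboxylase, 1208, 1338, 118 and 128 CPM. Pdk4, the kinase that shuts pyruvate dehydrogenase and spares glucose, gave 1083, 1389, 85.1 and 59.1 CPM. Slc2a4, the insulin-sensitive glucose transporter GLUT4, gave 46.9, 39.1, 3.62 and 4.73 CPM, with 6 and 4 UMIs in the white libraries. Synthesis and oxidation genes were thus high in the same libraries.

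Lipolysis and droplet genes were mixed at the level of single genes. Of 21 tested, 16 were called higher in brown and 1, the natriuretic peptide receptor Npr1 (35.7, 29.6, 71.8 and 52.1 CPM), higher in white. Npr1 turned over when values were scaled per nucleus (log2 fold change 1.31) or without the minimum of UMIs (0.52), and its call was lost without either brown library (FDR = 0.19 without taPVAT and 0.35 without BAT). Plin5, the perilipin that tethers droplets to mitochondria, gave 82.3, 83.3, 4.83 and 13.01 CPM. Plin1, the main droplet coat of adipocytes, gave 2435, 2501, 1287 and 478 CPM (log2 fold change 1.71 ± 0.55, FDR = 0.022), a call that was lost without either brown library (FDR = 0.18 without taPVAT and 0.17 without BAT).

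Plin4 had no order by colour, with 273, 363, 741 and 75.7 CPM. The library labelled mesPVAT was the highest of the 4 and that labelled RP fat the lowest, and the fitted direction, white-higher at -0.12, turned per nucleus (1.67), without the minimum of UMIs (1.02), with perivascular location as a term (0.56), without taPVAT (0.04) and without mesPVAT (2.00). Among the 10 adipocyte markers, Plin4 was the 1 that was not called, and the other 9 were higher in brown.

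**Figure D2:**
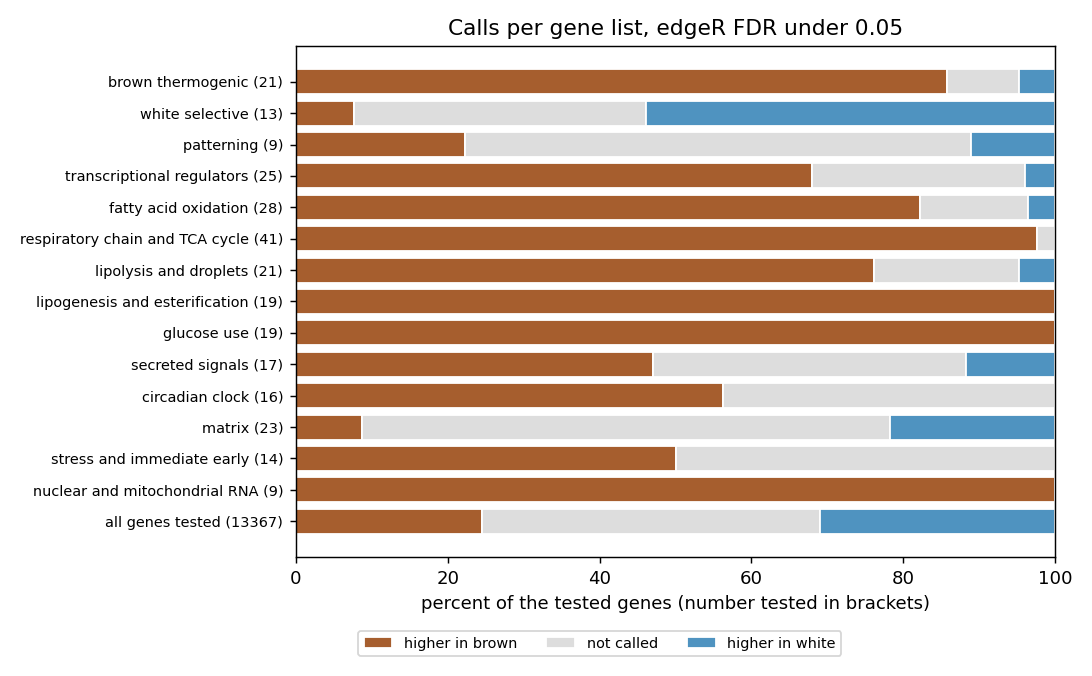
Share of the tested genes of each list called higher in brown, called higher in white or not called (edgeR FDR under 0.05), with all 13367 tested genes in the lowest bar. The respiratory, lipogenesis, glucose and mitochondrial lists are nearly or wholly brown, beside 24.5% of all genes. The white selective list has 7 of 13 genes higher in white and the matrix list 5 of 23, the latter below the 31.0% of all genes.

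Of the 25 tested transcriptional regulators, 17 were called higher in brown and 1, Esrrb (26.1, 24.1, 51.9 and 76.9 CPM), higher in white. Esrrb turned to 1.03 per nucleus and to 0.18 without the minimum of UMIs, and its call was lost without taPVAT (FDR = 0.070) and without BAT (FDR = 0.099). Ppara and Ppargc1b, which drive oxidative genes, gave 719, 916, 59.8 and 67.4 CPM and 1783, 2309, 179 and 143 CPM (log2 fold changes 3.91 ± 0.40 and 3.89 ± 0.48). Irf4, a factor that rises in adipocytes with fasting and cold, gave 129, 111, 9.66 and 11.8 CPM. Pparg, the master regulator of all adipocytes, gave 1183, 1285, 217 and 189 CPM. The orphan receptor Nr4a2 was among the 5 genes with the largest gap, at 152, 174, 6.04 and 11.8 CPM, and its relative Nr4a1 gave 206, 217, 16.9 and 82.8 CPM. Nr4a1 and Nr4a2, immediate-early genes of cAMP signalling, were thus high in both brown depots, with the white pair split for Nr4a1 (log2 fold change 2.38 ± 0.56, FDR = 0.0042, and 0.067 by DESeq2).

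The remaining genes with the smallest p-values in brown were of varied function. Tfrc, the transferrin receptor that imports iron, gave 246, 278, 24.7 and 21.3 CPM. Glul, glutamine synthetase, gave 405, 338, 29.6 and 30.8 CPM, and Mpc1, a subunit of the mitochondrial pyruvate carrier, 91.6, 106, 9.66 and 9.46 CPM. Sdc4, Slc25a42, Cntnap1, Calr3 and Tob1 completed the 15, with log2 fold changes of 3.63, 3.59, 4.23, 3.40 and 3.43. Slc25a42 carries coenzyme A into mitochondria, and Sdc4 is a cell surface proteoglycan.

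Secreted factors and patterning genes showed a part of the difference only. Of 17 tested secreted signals, 8 were called higher in brown and 2 in white. Nrg4, a growth factor released by brown fat, gave 456, 407, 56.1 and 55.6 CPM, Vegfa, the vascular growth factor, 1499, 1373, 461 and 222 CPM, and Adipoq, adiponectin, 143, 170, 73.0 and 39.0 CPM. Of 43 patterning genes 9 passed the minimum. Lhx8, a homeobox gene known from brown fat, gave 31.6, 23.3, 6.04 and 11.8 CPM and was called higher in brown, a call lost without mesPVAT (FDR = 0.063). Meox2, a mesodermal homeobox gene (160, 201, 128 and 65.1 CPM), was called as well, but not without taPVAT (FDR = 0.057), BAT (FDR = 0.25) or the library labelled RP fat (FDR = 0.082). Pax3, a myogenic factor, gave 4.90, 5.54, 46.5 and 40.2 CPM and was called higher in white, with 9.23, 12.97, 25.4 and 12.1 UMIs per 1000 nuclei. Of 16 tested clock genes 9 were higher in brown and none in white, and the time of tissue collection was not given. Of 14 tested stress and immediate early entries (13 symbols, Ddit3 being annotated at 2 loci, both called higher in brown) 7 were higher in brown and none in white. All these counts stand beside 24.5% of all tested genes higher in brown and 31.0% in white. Stress genes under the minimum of UMIs were highest in RP fat. They were Hspa1b (1.96, 1.11, 9.66 and 45.0 CPM), Fosb (4.51, 5.54, 6.04 and 24.8 CPM) and Dnajb1 (6.47, 3.64, 6.04 and 10.6 CPM). The stress list summed to 591, 586, 397 and 629 CPM.

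Genes known to be selective for white fat were fewer and moved less uniformly. Of 13 tested, 7 were called higher in white and 1 in brown, with a median log2 fold change of -1.03, beside 31.0% of all tested genes called higher in white. Ccdc80, a secreted protein of white adipocytes, gave 99.0 and 33.4 CPM in brown against 706 and 336 CPM in white (log2 fold change -2.77 ± 0.52, FDR = 0.001). Nnat, neuronatin, gave 27.1, 24.4, 240 and 71.0 CPM, Sncg, gamma-synuclein, 10.0, 5.86, 91.7 and 35.5 CPM, and Slc7a10, a neutral amino acid transporter of white adipocytes, 13.7, 11.6, 73.6 and 30.8 CPM. In each of these the mesPVAT library was the highest. Resistin (Retn) was the exception, at 165, 175, 41.0 and 13.01 CPM. Fgf10, a growth factor of preadipocytes, was called at 15.1, 18.8, 50.1 and 29.6 CPM, but turned per nucleus (0.99) and without the minimum of UMIs (0.21), and its call was lost without any 1 of taPVAT, BAT and mesPVAT (FDR = 0.18, 0.084 and 0.078). Leptin (Lep), the satiety hormone, overlapped, at 31.2, 25.01, 80.3 and 14.2 CPM (log2 fold change -0.61 ± 0.51, FDR = 0.33), and it turned without mesPVAT (0.90), per nucleus (1.28) and without the minimum of UMIs (0.56).

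Matrix genes were mostly not called. Of 23 tested, 5 were higher in white (Col5a3, Col6a1, Fbn2, Col5a2 and Adamts5) and 2, Lama4 and Timp3, higher in brown, both shares below the 31.0% and 24.5% of all tested genes. Col5a2 and Adamts5 turned per nucleus, to log2 fold changes of 0.72 and 0.96. The call of Lama4, a laminin chain of basement membranes, was lost without taPVAT (FDR = 0.14) and without BAT (FDR = 0.19). Col5a3, a fibrillar collagen chain, gave 256 and 271 CPM in brown against 5469 CPM in the library labelled mesPVAT and 574 CPM in that labelled RP fat, a log2 fold change of -3.27 ± 0.84 (FDR = 0.0072). Without mesPVAT the log2 fold change was -1.20 (FDR = 0.0038), without RP fat -4.26, and without taPVAT the call was lost (FDR = 0.052). The wells lay between 5206 and 5803 CPM in mesPVAT and between 482 and 754 CPM in RP fat, and per 1000 nuclei the 4 libraries held 483, 634, 2992 and 173 UMIs, so that mesPVAT stood above and RP fat below both brown libraries. Col6a1 gave 124, 83.1, 272 and 309 CPM, turned per nucleus (0.82) and to 0.0048 without the minimum of UMIs, and lost its call without taPVAT (FDR = 0.055) and without BAT (FDR = 0.17). Fbn2, a fibrillin, gave 15.1, 16.6, 77.9 and 128 CPM.

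**Figure D3:**
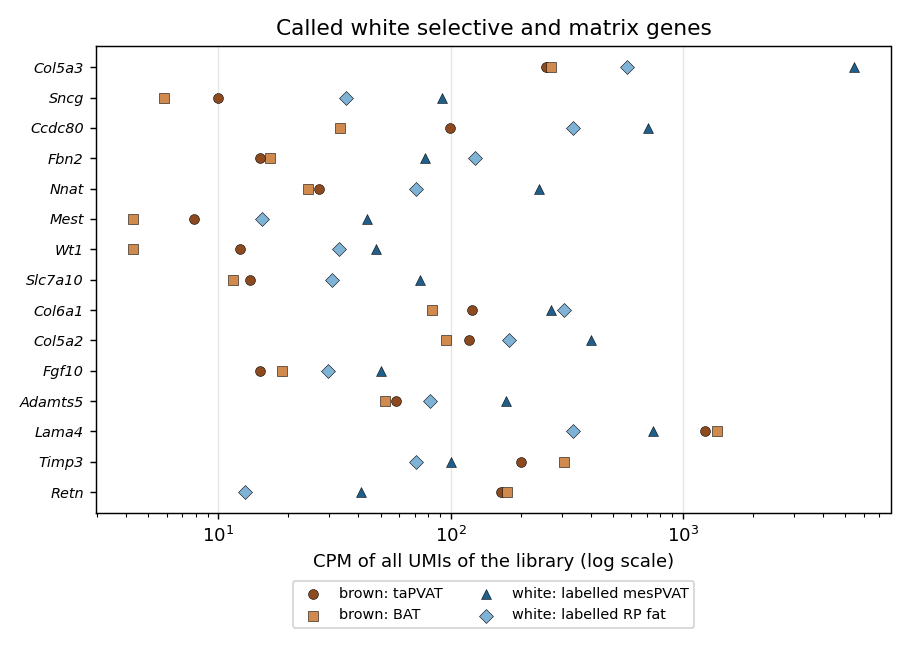
CPM (log axis) of the genes on the white selective and matrix lists that were called in either direction, 1 symbol per library. The mesPVAT library lies farthest from the brown pair for Col5a3 (5469 CPM), Ccdc80 (706 CPM) and Nnat (240 CPM), and Lama4, Timp3 and Retn lie higher in brown.

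Restricting the sums to adipocyte-marked nuclei kept most calls of some lists and fewer of others. The marked sets were 2045, 2327, 930 and 261 nuclei, with 4600221, 5991463, 862333 and 134989 UMIs. Values of RP fat in these sets thus rest on few UMIs per gene. With the 10 markers left out, 10860 genes were tested, of which 1866 were higher in brown (17.2%) and 2310 in white (21.3%), with a median log2 fold change of 0.05. Of the 21 thermogenic genes 18 were again higher in brown, and of the 41 respiratory genes 39. Fewer were called higher in brown for lipolysis and droplets (10 of 16), the clock (5 of 16) and secreted signals (5 of 15). The same held for stress and immediate early entries (4 of 14) and transcriptional regulators (14 of 24). These counts fall in part because list members are among the markers left out. Such members were Plin1, Plin4, Lipe, Cidec and Pde3b for lipolysis and droplets, Adipoq for secreted signals and Pparg for the regulators. All of them but Plin4 were called higher in brown over all nuclei. Of the 13 white selective genes 8 were higher in white, with a median log2 fold change of -1.96. Ccdc80 stood at 85.9, 32.9, 863 and 499 CPM of these nuclei, Nnat at 29.7, 25.7, 429 and 261 CPM and Sncg at 10.1, 5.74, 141 and 96.9 CPM, so that the fitted differences of -3.57, -3.71 and -4.04 were larger in size than those over all nuclei. Lep was called higher in white here at 34.0, 26.5, 129 and 29.8 CPM (log2 fold change -1.77 ± 0.36), but without the mesPVAT library its log2 fold change was -0.10 and the call was lost. Of the genes called over all nuclei and tested in both, 1830 of those higher in brown were called so again and 1422 were not called, while 2026 of those higher in white were called so again and 167 were not called. None was called the opposite way.

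The genes with the smallest p-values on the white side were of another kind. Among them were Dnah5, Gpr158, Rab3b, Khdrbs2, Myo3a, Epha5, Kcnh7, Dync1i1, Cnbd1, Klhl1, Sorcs1, Sox21, Gabrb1 and Chst9, and the 5 with the largest gap were Slc9c1, Dnah5, Tmem233, Plac1 and Mei4. Several are known from neurons (Gabrb1, a GABA receptor subunit, and Kcnh7, a potassium channel) or from cilia and germ cells (Dnah5, an axonemal dynein, and Mei4, a meiotic recombination factor). Dnah5 gave 14.7 and 10.0 CPM in brown against 200.4 and 187 CPM in white (log2 fold change -3.76 ± 0.30, FDR = 9.1e-05). Sorcs1, a sorting receptor, gave 20.4, 20.7, 190.0 and 251 CPM.

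Per nucleus the difference for these genes was far smaller. Sorcs1 had 38.4 and 48.5 UMIs per 1000 nuclei in brown and 104 and 75.6 in white. Dnah5 had 27.7, 23.3, 109.6 and 56.3 UMIs per 1000 nuclei. When the fit was scaled to the number of nuclei, an alternative added after the data were seen, 9416 genes were higher in brown (70.4%) and 529 in white (3.96%), with a median log2 fold change of 2.14. The white libraries held fewer UMIs per nucleus, so this scaling moves all genes toward brown by a similar amount. The median moved from 0.07 to 2.14. Of the 4138 genes higher in white by CPM, 529 remained so, 3307 were not called and 302 were higher in brown. All 3278 genes higher in brown by CPM were higher in brown per nucleus too, a direction fixed in advance by that shift. The list counts per nucleus that follow hold the same shift and stand beside 70.4% of all tested genes. Of the thermogenic genes 20 of 21 were higher in brown per nucleus, as were 6 of the 13 white selective and 12 of the 23 matrix genes, and none of these lists had a gene higher in white. Slc7a10 turned, to 0.089, per nucleus. None of the 7 white selective genes called by CPM was called higher in white per nucleus, and of the 19 genes with the smallest p-values or the largest gaps in white Dnah5, Rab3b, Sox21, Slc9c1, Tmem233, Plac1 and Mei4 were. The values per nucleus of the white pair still lay above those of the brown pair for each of the 19.

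**Figure D4:**
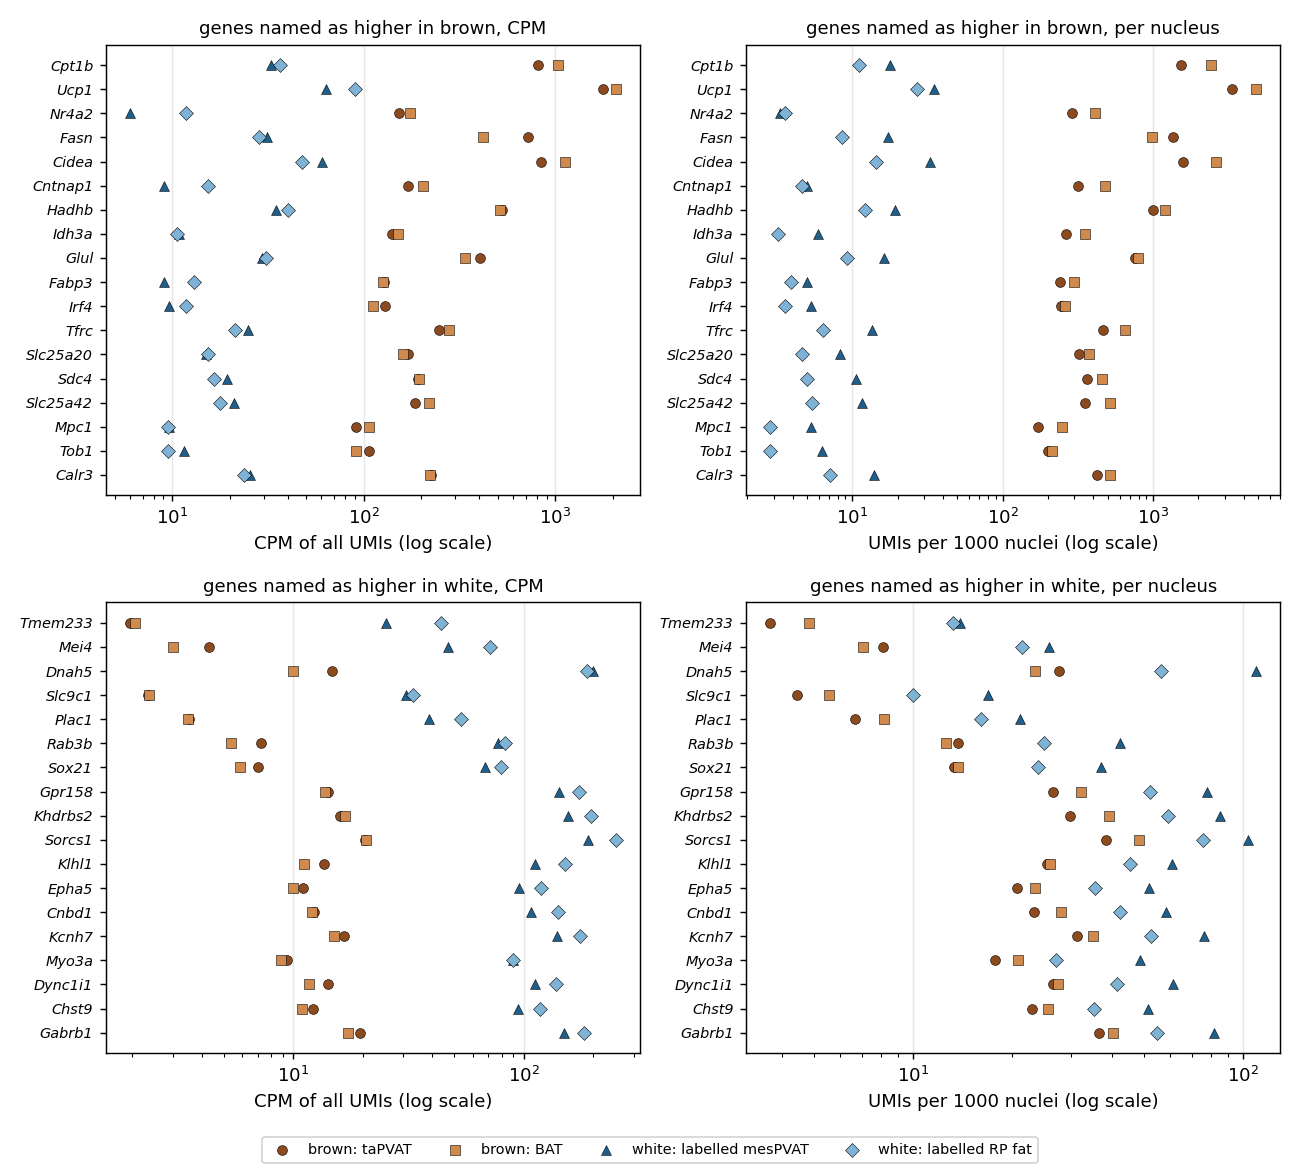
Values of the genes named as higher in brown (top) and in white (bottom) in CPM (left) and in UMIs per 1000 nuclei (right), log axes, 1 symbol per library. The brown-named genes are farther apart per nucleus, whereas for the white-named genes the pairs move closer, as for Sorcs1 with 38.4 and 48.5 against 104 and 75.6 UMIs per 1000 nuclei. Both changes follow from the scaling, because the white libraries held fewer UMIs per nucleus.

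The differences also ran with gene length. Gene length in RefSeq was known for 10814 of the 13367 tested genes, and the median log2 fold change fell over 5 classes of length from 0.64 for genes under 10 kb (n = 1479) through 0.50, 0.24 and -0.30 to -1.53 for genes over 300 kb (n = 550). In the longest class 46 genes were called higher in brown and 338 in white. Among genes called higher in white, length was known for 55.1%, so a check of length over that set alone is void. Per nucleus the medians of the same classes went from 2.68 to 0.62, and none lay below 0.

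**Figure D5:**
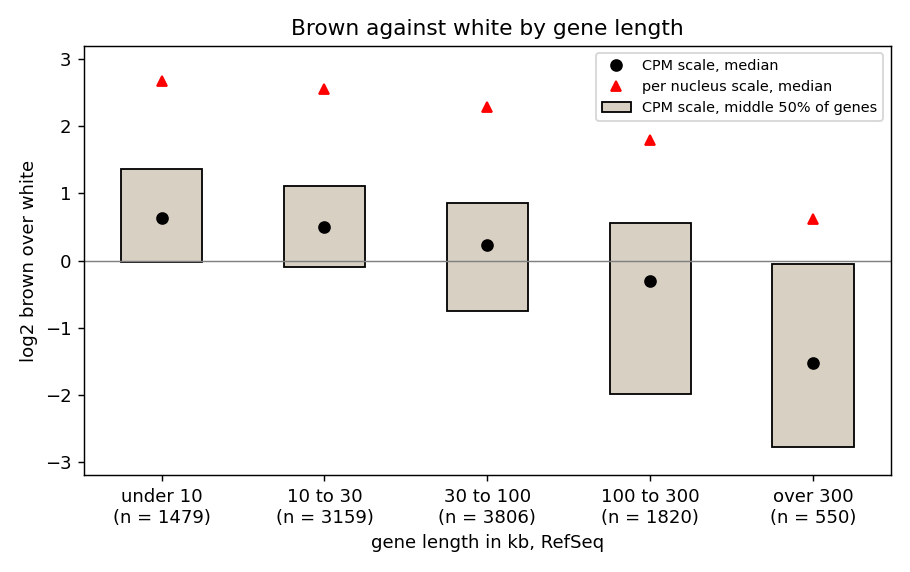
Log2 fold change of brown over white by gene length class: bars span the middle 50% of genes and dots mark the median on the CPM scale, triangles mark the median per nucleus. The CPM medians fall from 0.64 to -1.53 from the shortest to the longest class.

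Olfactory receptor genes, taken as a set, gave a level of UMIs to set beside these values. Whether single receptors are expressed in fat was not tested. Over 1114 such genes, the libraries held 563, 589, 983 and 778 UMIs, or 63.6, 53.7, 342 and 531 CPM per megabase of gene, which in white is several times the brown density, with exact Poisson intervals of 58.5 to 69.1, 49.5 to 58.3, 321 to 364 and 494 to 569. Per 1000 nuclei the same UMIs were 208, 218, 325 and 277. Of the genes with a length called higher in brown, 3035 lay at 3 times the receptor density or more in both brown libraries and 5 did not. Of those called higher in white, 253 did so in both white libraries and 2026 did not, a count added after the data were seen. These made up 28.1% and 2.34% of the 10814 genes with a length. The 2 counts cannot be compared. The receptor density was lower in brown, and genes called in brown had a median length of 28.9 kb, against 92.3 kb in white. With the minimum of UMIs, few genes called in brown could thus fall below 3 times the density. No length was known for 238 genes called in brown and 1859 in white. The share of uncalled genes above the density was not computed. The part of the receptor level in the values of single genes was not tested. Of the 19 genes named as higher in white, Sox21 (55.0 and 41.5 times in mesPVAT and RP fat) was the 1 above 3 times the density in both white libraries, and Sorcs1 lay at 1.08 and 0.920 times.

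The genes called higher in white lay on either side of that density. Relative to the receptor density of the same library, Ccdc80 lay at 61.3 and 18.8 times in mesPVAT and RP fat, Nnat at 283 and 54.1 times, Sncg at 50.5 and 12.6 times, Slc7a10 at 13.5 and 3.63 times and Col5a3 at 353 and 23.9 times. Fgf10 (1.90 and 0.724 times) and Wt1 (2.86 and 1.28 times) did not reach 3 times in either white library, nor did Fbn2 (1.11 and 1.17 times), and Col5a2 (7.86 and 2.24 times) reached it in mesPVAT only. Thbs1, the matricellular protein thrombospondin-1, chosen after its values were seen, gave 12.0, 11.9, 150 and 73.3 CPM and lay at 28.9 and 9.12 times.

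Markers of some other cell types were called with colour, to be read against the 31.0% of all tested genes higher in white and 24.5% in brown. All 3 tested lymphatic endothelial markers, 7 of 7 lymphocyte and 2 of 2 mast cell markers were called higher in white by CPM, and none of these 12 was called per nucleus. Their summed levels were 84.9, 47.6, 241 and 406 CPM for lymphatic endothelium, 141, 77.9, 432 and 668 CPM for lymphocytes and 29.6, 28.8, 143 and 169 CPM for mast cells. The lymphocyte markers lay near the receptor density of their library, as Themis did at 0.925 and 0.719 times and Skap1 at 0.914 and 1.24 times, and of the defining T cell marker Cd3e the libraries held 7, 2, 4 and 5 UMIs. The list of adipocyte stem and progenitor cells, which holds Col5a3, had 3 of 10 markers higher in white, near that background, and 0 in brown. Called beside Col5a3 were Dpp4 and Fap, at 1.30 and 1.07 times and 1.38 and 1.26 times the receptor density in mesPVAT and RP fat. Per nucleus Dpp4 was not called and Fap was called higher in brown. The sums of the progenitor list were 1193, 671, 6693 and 1863 CPM, of which Col5a3 alone gave 256, 271, 5469 and 574 CPM. After thinning to 200 UMIs, Col5a3 was found in 66.6% of adipocyte-marked and 17.5% of unmarked mesPVAT nuclei. In RP fat the shares were 24.6% and 5.12%. In both brown libraries the thinned share was lower in marked nuclei, with overlapping intervals. The mesPVAT sum thus rests mostly on Col5a3 and does not by itself give a level of progenitor cells. Of the same list Pdgfra, the receptor that defines progenitor cells, gave 56.9, 14.7, 62.2 and 109 CPM and was not called. Of 10 endothelial markers 4 were higher in brown and the sums were 1529, 1860, 1492 and 1183 CPM. Macrophage markers summed to 471, 204, 541 and 560 CPM with 4 of 8 higher in white, pancreatic acinar markers to 6.67, 4.12, 38.0 and 36.7 CPM, and skeletal muscle markers to 436, 313, 665 and 769 CPM with 4 of 7 higher in white and 1 in brown. Per 1000 nuclei the macrophage sums were 886, 477, 296 and 169 and the skeletal muscle sums 821, 732, 364 and 232 UMIs. Neither list had a marker called higher in white per nucleus. None of the 9 acinar markers passed the minimum of UMIs. The acinar sums per 1000 nuclei overlapped between the colours, at 12.6, 9.63, 20.8 and 11.1 UMIs. Of the macrophage markers called, F13a1 lay at 1.19 and 1.15 times the receptor density and Adgre1 at 0.647 and 0.846 times. Csf1r (4.30 and 3.93 times) and Cd163 (3.49 and 2.54 times) were not called. Under the minimum of UMIs, the macrophage marker Cd68 lay higher in brown (6.47, 5.38, 1.21 and 1.18 CPM). C1qa, also under the minimum, overlapped (8.82, 1.74, 4.23 and 9.46 CPM). Pericyte and smooth muscle markers had 4 of 9 higher in brown, Schwann cell markers 1 of 6 higher in brown and 2 in white, mesothelial markers 1 of 2 higher in white and erythroid markers 0 of 2 called. The part of these cells in the gene values above was not tested.

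The gene with the most UMIs in taPVAT, BAT and mesPVAT, ENSRNOG00000087169, which carries no symbol, was not the first in RP fat, where ENSRNOG00000088851 led with 18066 UMIs. ENSRNOG00000087169 stood at 118760, 122462, 53284 and 15883 CPM. Its log2 fold change was 2.04 ± 1.54 (FDR = 0.28), it was called by DESeq2 (adjusted p = 3.0e-05) and by edgeR without mesPVAT (FDR = 0.023), and leaving it out of the library totals gave 2967 genes higher in brown and 4290 in white.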

How the data were processed

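Single nuclei of snap-frozen adipose tissue were profiled with the Parse Evercode whole transcriptome kit. The deposited matrices hold UMI counts per gene and nucleus, made by the authors with the Parse pipeline on GRCr8 and already filtered to barcodes called as nuclei. The authors called doublets later, and doublets were not removed here because nuclei were summed. Counts were summed over all nuclei of each of the 4 libraries and tested with edgeR 4.0.16 (quasi-likelihood, TMM factors, no covariate, Benjamini-Hochberg FDR under 0.05), on genes with at least 100 UMIs in all. SE is that of the log2 fold change, computed as its size over the square root of the quasi-likelihood F. It thus rests on a variance moderated over genes and is not the spread of a gene between the libraries of a colour. An exact permutation of 2 against 2 libraries cannot give a two-sided p below 0.333. Libraries of 845316 to 6317970 UMIs set the precision. Counts were also simulated with the real depths, a mean profile shared by all libraries, a common dispersion of 0.048 and 200 changed genes. Of these, 14.4% of 97 genes changed 2-fold and 86.3% of 95 changed 4-fold were recovered, with 3 false calls among 13133. The simulation held no trend with gene length and no higher receptor density in white. It therefore does not give the rate of false calls in the real libraries.

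Named genes were the 15 with the smallest p-values in each direction and a symbol, the 5 with the largest gap (lower value of the higher pair over the higher value of the lower pair), the list members, the most abundant gene and cell type markers. Members, lists and thresholds were chosen with earlier results of these data known. Gene lengths, olfactory receptor names and promoters came from RefSeq GRCr8. Shares carry exact binomial and receptor densities exact Poisson intervals. Alternatives changed the normalization, the tool (DESeq2 1.42.0), the filter, the nuclei, the depth, the sublibrary and the libraries. Some named genes are not reported here. The cow library and the 10x library of the series were not used here.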

Additional observations from a re-analysis of the deposited data

Results flagged for a closer look

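Plin4, a lipid droplet coat protein, moved in opposite directions between the colours in the perivascular and the other depots. Its log2 CPM ratio was -1.44 for taPVAT over the library labelled mesPVAT and 2.26 for BAT over that labelled RP fat. The labels of the white pair may be exchanged, which would change the pairs behind both ratios. Each ratio rests on 1 library against 1, and the difference was not tested.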

How the results depend on the processing

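The 3278 genes higher in brown and 4138 higher in white in all nuclei became 3091 and 4165 with RLE factors, 2365 and 4495 with library totals only, 2505 and 3905 with DESeq2, 9345 and 8755 without a minimum of UMIs, 618 and 514 with at least 1000 UMIs, 1576 and 1894 with libraries thinned to the smallest total, 2060 and 2420 in sublibrary 1 and 1284 and 2124 in sublibrary 2. Leaving out 1 library gave 1289 to 2831 and 2684 to 3227, the lowest counts without BAT (1289 and 2684) and, in brown, without taPVAT 1865. The lone library of a colour is then assumed to vary like the other colour. Among adipocyte-marked nuclei the same gave 534 to 1961 and 1166 to 2251, with 534 brown genes without taPVAT and 672 without BAT, and 1001 without mesPVAT. Scaled per nucleus, the counts were 9416 and 529. Of the 2279 genes with a length called higher in white by CPM, 253 reached 3 times the receptor density in both white libraries. Depth limits the white pair most, and counts under a filter or thinning fall in part because fewer genes were tested; other causes were not tested.

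Among the genes followed through the alternatives, fitted log2 fold changes that turned without a minimum of UMIs were Col6a1 0.0048, Esrrb 0.18, Fgf10 0.21, Cpt1a 0.27, Npr1 0.52, Lep 0.56 and Plin4 1.02. Per nucleus they were Ryr2 0.0020, Slc7a10 0.089, Col6a1 0.82, Fgf10 0.99, Esrrb 1.03, Cpt1a 1.10, Lep 1.28, Npr1 1.31 and Plin4 1.67. Outside this set, genes called higher in white that turned per nucleus included Col5a2 0.72, Adamts5 0.96, Dpp4 0.21, Fap 1.12, F13a1 0.92 and Adgre1 0.86. Plin4 was 0.56 with perivascular location as a term. Over the libraries left out, Plin4 ranged from -1.10 to 2.00, Lep from -1.40 to 0.90 and, in adipocyte-marked nuclei, Cox15 from -0.75 to 0.71. Of the named genes examined, 110 kept their call with RLE factors and 107 with DESeq2, where 2 lost it and 1 gained it. No paired analysis was possible because the labels give no replicate numbers that match samples across the colours. With perivascular location as a term, which sets taPVAT with mesPVAT and BAT with RP fat, 3017 genes were higher in brown and 4087 in white. An exchange of the white labels would change the pairs behind this term, also for the Plin4 value of 0.56, and was not tested.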
